A study of Homo sapiens with 12 samples.

Results

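The BCL2 family of apoptosis regulators was followed in A375 cells, a human melanoma line, as 10 genes taken by symbol from a table of 44659 genes: BCL2, BCL2L1, MCL1, BAX, BAK1, BCL2L11, BMF, BBC3, PMAIP1 and BIK. All 10 were listed in every one of the 12 libraries, and 9 of them had enough reads to be tested. RNA was sequenced in 4 groups of 3 replicates. Control cells (CC) were kept in DMSO, the drug solvent, for 72 h. Treated cells (TC) were exposed for 72 h to MAPKi, a mixture of 500 nM vemurafenib, which blocks the kinase BRAF, and 500 nM cobimetinib, which blocks the kinase MEK, and were harvested at once. Persister cells (PC) had the same exposure and were then grown for 2 days without drug, and recovered cells (RC) for 9 days. The only control was harvested on the same day as TC, so that in PC and RC the effect of drug removal and that of the added days in culture cannot be told apart. All groups came from 1 cell line, TC, PC and RC were each compared with the same 3 CC libraries, and where nothing says that the replicates were separate cultures the p-values measure only the spread between these samples.

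Members of the BCL2 family decide whether the outer mitochondrial membrane is opened during apoptosis. Prosurvival members (BCL2, BCL-xL encoded by BCL2L1, and MCL1) hold the pore-forming effectors BAX and BAK in check. BH3-only members, among them BIM (BCL2L11), BMF, PUMA (BBC3), NOXA (PMAIP1) and BIK, bind prosurvival proteins or activate the effectors, and NOXA binds mainly MCL1. In melanoma with an activated BRAF kinase, ERK signalling is known to limit BIM and BMF, the first by phosphorylation that marks the protein for destruction and by lowering its RNA. The measurements below are of RNA per gene, so that splice forms with opposite functions, such as those of BCL2L1, MCL1 and BCL2L11, were not separated, and protein was not measured here.

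Levels are given as CPM, read counts scaled to the normalized size of each library, as mean ± SD over 3 libraries. A gene was called higher or lower when the adjusted p of edgeR's quasi-likelihood test, adjusted by Benjamini-Hochberg over the 15916 genes tested, was under 0.05, and called beyond 1.5-fold when a change larger than 1.5-fold passed at the same level. Differences are log2 fold changes with their standard error (SE). The SE was derived from the test, as the absolute log2 fold change divided by the square root of the F statistic. Library totals ran from 37773389 to 55567097 counts, and 3 counts, taken as the floor for detection, correspond to 0.0794 CPM at the lowest depth (counting error only). DUSP6, SPRY4 and ETV4, genes that ERK signalling drives, differed by -5.32 (SE 0.49), -8.06 (SE 0.39) and -6.49 (SE 0.10) on the log2 scale between TC and CC (-4.46, -7.52 and -6.48 without CC replicate 3). All 8 melanocyte markers examined were detected, and their summed level, led by SOX10 in CC and RC and by DCT in TC and PC, ran from 1665 to 1893 CPM over the CC libraries, 7097 to 10314 over TC, 3498 to 5109 over PC and 1529 to 1595 over RC. Of the 8, 6 were called higher in TC and in PC, beside 33.2% of all genes tested in each, with DCT and PMEL highest in TC (3.99 and 3.13). S100B fell by 0.91 in TC, beyond 1.5-fold. MITF differed by -0.17 in TC, without a call, and by -0.71 in PC, a call lost without CC replicate 3 (-0.46, adjusted p = 0.123). The 10 markers of blood, endothelial, epithelial and liver cells summed to between 2.202 and 6.07 CPM, with CD3E, PECAM1, KRT5 and ALB at 2 reads or fewer in every library. KRT14, a keratin of basal epithelium, was called higher in TC and PC, with 0, 2 and 0 reads in the CC libraries, 21, 15 and 14 for TC, 88, 89 and 114 for PC, and 2, 0 and 0 for RC, and PTPRC and VWF, of blood and endothelial cells, were called lower in TC (-3.55 and -0.99) and PC (-1.96 and -1.25). The part of these markers' changes in the results was not tested. CC replicate 3 stood apart from the other CC libraries in some genes: it held 3.45 times their mean level of DUSP6, 1.93 times that of MCL1, 1.78 times that of PMAIP1 and 1.48 times that of BCL2. For the other tested members the ratio ran from 0.79 (BMF) to 1.11 (BAK1), and ETV4 was at 236, 230 and 238 CPM in the CC libraries. Where leaving CC replicate 3 out changed the call of a fold change given here, both values are given. Bulk RNA cannot tell fewer cells of a kind from less RNA per cell.

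The promoters of the 3 members with the clearest changes, BCL2L11, BMF and PMAIP1, are given as the 250 bases before the RefSeq gene start (GRCh38.p14), written 5′ to 3′ on the strand of the gene. Capitals mark GTAAACA, which is the FOXO core motif TGTTTAC read on the other strand. It lies 223 bases before the RefSeq start of BCL2L11 used here. In GENCODE v44 the gene begins at 111119378, so that by that annotation this window lies inside the gene.
BCL2L11, chr2:111120664-111120913, plus strand: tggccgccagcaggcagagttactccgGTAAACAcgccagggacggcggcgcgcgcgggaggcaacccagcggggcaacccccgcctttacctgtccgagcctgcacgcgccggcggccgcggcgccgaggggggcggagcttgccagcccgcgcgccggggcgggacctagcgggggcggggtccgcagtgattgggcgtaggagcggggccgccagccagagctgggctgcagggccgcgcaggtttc
BMF, chr15:40108880-40109129, minus strand: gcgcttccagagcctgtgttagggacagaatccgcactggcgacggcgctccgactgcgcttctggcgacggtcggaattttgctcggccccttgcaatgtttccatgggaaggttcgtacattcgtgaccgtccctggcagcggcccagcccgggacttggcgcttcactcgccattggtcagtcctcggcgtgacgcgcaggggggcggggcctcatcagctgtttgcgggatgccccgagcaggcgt
PMAIP1, chr18:59899746-59899995, plus strand: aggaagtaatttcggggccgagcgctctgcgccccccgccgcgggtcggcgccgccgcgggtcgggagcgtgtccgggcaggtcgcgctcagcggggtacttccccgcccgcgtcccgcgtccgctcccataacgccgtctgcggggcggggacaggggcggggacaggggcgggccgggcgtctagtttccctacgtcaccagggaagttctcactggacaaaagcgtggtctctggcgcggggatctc
Both strands were searched for 6 motifs, and TGTTTAC was in 2.98% of the 35116 promoter windows of this length in the RefSeq table. The windows of BMF and PMAIP1 held none of the 6, which were TGTTTAC, the CREB motif TGACGTCA, TGATGNAAN (a composite site of ATF4 with C/EBP factors), the AP-1 motif TGANTCA, the ETS motif CCGGAAGT and the E-box CACGTG, read by MYC and MITF among others. The BMF gene has a further start in the table, whose window also held none. Of the 8 members found in the table, BAX held CACGTG at 4 places, 138, 93, 45 and 14 bases before its start, and BBC3 held it at 232 bases and TGANTCA at 113 bases. CACGTG was in 6.34% and TGANTCA in 6.57% of all windows. A match describes these letters only, and binding was not measured.

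After 72 h of MAPKi, prosurvival and BH3-only members each included genes that rose and genes that fell. BCL2L1, BCL2L11 and BMF rose, BCL2, BBC3 and PMAIP1 fell, and MCL1, BAX and BAK1 passed no test. These were 3 higher and 3 lower of 9 members tested, where 33.2% and 34.7% of all genes tested were called in those directions, so that the share of members called was close to the background. Beyond 1.5-fold, 3 were higher and 2 lower, beside 16.1% and 19.3% of all genes. In PC, 4 members were higher and 3 lower than in CC, beside 33.2% and 35.9% of all genes, with 3 and 2 beyond 1.5-fold, beside 17.2% and 19.9%. Without CC replicate 3, MCL1 was also called higher, which made 4 higher in TC and 5 in PC. In RC none was higher and 4 were lower, beside 18.2% and 19.1%, and the 4 were the BH3-only members tested (3 without CC replicate 3, when PMAIP1 was not called). Beyond 1.5-fold none was higher and 2 were lower in RC, beside 1.35% and 2.52%. The median log2 fold change of the 9 members was 0.17 in TC, -0.10 in PC and -0.35 in RC, where that of all genes tested was -0.02, -0.04 and 0.00. These medians depend on CC replicate 3, without which they were 0.22, 0.22 and -0.09, so that the sign in PC turned.

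**Figure D1:**
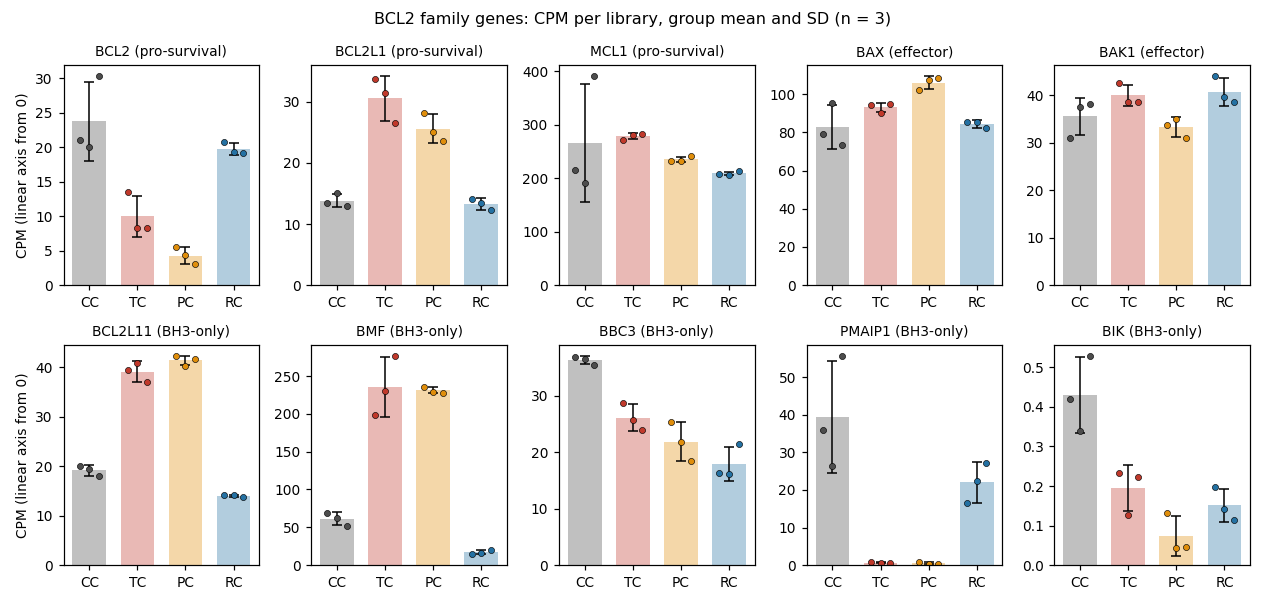
Level of each of the 10 members in CPM (y axes, linear from 0, scaled per panel) in CC, TC, PC and RC (x axes), with points for the 3 libraries, bars for group means and error bars for the SD. PMAIP1 stood between 26.4 and 55.7 CPM in CC and under 1 CPM in TC and PC, while BMF was highest in TC and PC and lowest in RC.

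Among the prosurvival members, BCL2 and BCL2L1 moved in opposite directions. BCL2, the founding member of the family (chromosome 18, 63123346-63320128, minus strand; GENCODE v44 on GRCh38, as for the other positions), was at 21.0, 19.96 and 30.3 CPM in the CC libraries, 13.4, 8.26 and 8.27 CPM in those of TC, 5.52, 4.33 and 3.05 CPM in those of PC, and 20.7, 19.3 and 19.1 CPM in those of RC. Every TC library lay below every CC library, every PC library lay below every TC library, and the RC libraries overlapped those of CC. On the log2 scale, BCL2 fell by 1.25 in TC (SE 0.24, adjusted p = 0.000483) and by 2.47 in PC (SE 0.25, adjusted p = 2.36e-06), which is 5.53-fold lower than CC. It was the only member that passed the test between PC and TC, where it fell by 1.22 (SE 0.24, adjusted p = 0.00352), although 12.5% of all genes were called lower there and the fall was not called beyond 1.5-fold (adjusted p = 0.0771). From PC to RC it rose 4.59-fold (SE 0.25 on the log2 scale), and the RC value differed from CC by -0.27 (SE 0.23, adjusted p = 0.389). Without CC replicate 3 the differences from CC were -1.03 in TC and -2.24 in PC, both still called.

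BCL2L1, whose main product BCL-xL is prosurvival (chromosome 20, 31664452-31723989, minus strand), was at 13.4, 15.0 and 13.02 CPM in the CC libraries, 33.8, 31.4 and 26.6 CPM in those of TC, 28.2, 25.0 and 23.6 CPM in those of PC, and 14.1, 13.5 and 12.3 CPM in those of RC. TC and PC lay wholly above CC, and RC overlapped CC. The gene was 2.21-fold higher in TC (log2 1.15, SE 0.11, adjusted p = 1.43e-06) and 1.85-fold higher in PC (log2 0.89, SE 0.11, adjusted p = 1.21e-05), both beyond 1.5-fold. It fell by 0.95 from PC to RC (SE 0.11), and RC differed from CC by -0.06 (SE 0.11, adjusted p = 0.711).

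MCL1, a prosurvival protein of short life (chromosome 1, 150560895-150579738, minus strand), varied widely among controls, at 215, 191 and 391 CPM in CC, against 271, 282 and 283 CPM in TC, 232, 233 and 241 CPM in PC, and 207, 207 and 213 CPM in RC. The TC, PC and RC libraries all fell inside the range of CC. No comparison was called with all libraries, with differences from CC of 0.07 in TC, -0.18 in PC and -0.35 in RC (SE 0.20 each; adjusted p = 0.776, 0.444 and 0.187). These values depend on the CC libraries kept. In TC the difference was -0.07 without CC replicate 1 and -0.13 without CC replicate 2, neither called. Over all alternatives the RC difference ran from -0.54 to 0.05, with a lowest adjusted p of 0.0305. Without CC replicate 3 MCL1 was higher than CC in TC by 0.46 (SE 0.06, adjusted p = 3.29e-05) and in PC by 0.22 (SE 0.06, adjusted p = 0.00528), and RC differed by 0.05 (adjusted p = 0.557). The falls from TC to PC (-0.24, adjusted p = 0.411) and from PC to RC (-0.17, adjusted p = 0.453) were then also called, at nearly the same size (-0.24, adjusted p = 0.00538, and -0.18, adjusted p = 0.00966). None of these was beyond 1.5-fold.

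The effectors differed from CC by at most 0.36 on the log2 scale. BAX (chromosome 19, 48954815-48961798, plus strand) was at 79.3, 95.5 and 73.3 CPM in the CC libraries, 94.4, 90.1 and 94.6 CPM in those of TC, 102, 108 and 109 CPM in those of PC, and 85.6, 85.6 and 82.1 CPM in those of RC. Only the PC libraries lay clear of CC, with a difference of 0.36 (SE 0.08, adjusted p = 0.00207) that was not beyond 1.5-fold, and from PC to RC BAX fell by 0.33 (SE 0.08, adjusted p = 0.00363). In TC the difference was 0.17 (SE 0.08, adjusted p = 0.0885), and it was called only when CC replicate 2 was left out (0.28, adjusted p = 0.000945). BAK1, which encodes BAK (chromosome 6, 33572547-33580293, minus strand), was at 31.1, 37.6 and 38.1 CPM in the CC libraries, 42.6, 38.7 and 38.7 CPM in those of TC, 33.7, 35.1 and 30.9 CPM in those of PC, and 44.1, 39.7 and 38.5 CPM in those of RC. The TC and RC libraries lay just above those of CC, yet no comparison with CC was called (0.17, -0.10 and 0.19 in TC, PC and RC, SE 0.09 each). The rise from PC to RC of 0.29 (SE 0.09, adjusted p = 0.0123) was lost when PC replicate 3 (adjusted p = 0.0587) or RC replicate 1 (adjusted p = 0.0611) was left out.

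The BH3-only members showed the widest range. BCL2L11, which encodes BIM, a binder of all main prosurvival proteins (chromosome 2, 111119378-111168444, plus strand), was at 20.1, 19.4 and 18.0 CPM in the CC libraries, 39.5, 40.9 and 36.9 CPM in those of TC, 42.2, 40.3 and 41.6 CPM in those of PC, and 14.2, 14.1 and 13.8 CPM in those of RC. TC and PC were above CC and RC below it, with no library overlapping. BIM RNA was 2.04-fold higher in TC (log2 1.03, SE 0.07, adjusted p = 5.24e-08) and 2.16-fold higher in PC (log2 1.11, SE 0.07, adjusted p = 2.69e-08), and in RC it fell below the control by 0.45 (SE 0.07, adjusted p = 0.000397), a change not beyond 1.5-fold. Exons of the noncoding gene MIR4435-2HG overlap BCL2L11 on the opposite strand, and whether strand was used in counting was not stated. Other members also had genes overlapping them on the opposite strand. BMF had BMF-AS1, which has no counts of its own here. MCL1 had ADAMTSL4 (25 to 227 counts per library), BCL2L1 had ABALON (24 to 73) and BAK1 had GGNBP1 (1 to 13). MIR4435-2HG itself was at 62.2 ± 7.71 CPM in CC, 37.6 ± 4.91 in TC, 58.7 ± 6.42 in PC and 65.8 ± 0.8999 in RC (SD, n = 3). The part of such overlaps in the values of the members was not tested.

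BMF, a BH3-only protein tied to the cytoskeleton through dynein light chain (chromosome 15, 40087890-40108892, minus strand), was likewise above CC in TC and PC and below it in RC, with larger differences. It was at 69.2, 62.1 and 52.2 CPM in the CC libraries, 199, 231 and 277 CPM in those of TC, 236, 229 and 228 CPM in those of PC, and 14.7, 16.7 and 20.2 CPM in those of RC. TC and PC overlapped each other and lay far above CC, and RC lay far below it. The gene was 3.85-fold higher in TC (log2 1.95, SE 0.14, adjusted p = 1.3e-07) and 3.78-fold higher in PC (log2 1.92, SE 0.14, adjusted p = 1.35e-07). Between PC and RC it fell 13.4-fold (log2 -3.75, SE 0.15, adjusted p = 1.05e-09). RC ended 3.55-fold below CC (log2 -1.83, SE 0.14, adjusted p = 1.14e-05), beyond 1.5-fold, where only 2.52% of all genes were called lower by that rule. Without CC replicate 3 that difference was -1.92 (adjusted p = 1.35e-05).

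BBC3, which encodes PUMA (chromosome 19, 47220822-47232766, minus strand), was at 37.0, 36.6 and 35.5 CPM in the CC libraries, 28.8, 25.7 and 24.0 CPM in those of TC, 25.4, 21.8 and 18.4 CPM in those of PC, and 16.3, 16.1 and 21.5 CPM in those of RC. All libraries of TC, PC and RC lay below all of CC, and PC overlapped both TC and RC. BBC3 fell by 0.48 in TC (SE 0.13, adjusted p = 0.00664), by 0.73 in PC (SE 0.13, adjusted p = 0.00033) and by 1.02 in RC (SE 0.13, adjusted p = 0.000163), and only the fall in RC was beyond 1.5-fold (adjusted p = 0.0244). The steps from TC to PC (-0.26, adjusted p = 0.186) and from PC to RC (-0.28, adjusted p = 0.0747) passed no test. BBC3 was thus lower than CC at all 3 times, and it and BMF were the 2 members called beyond 1.5-fold in RC. The BBC3 call beyond 1.5-fold was lost under DESeq2 (adjusted p = 0.0717) and without CC replicate 1, RC replicate 1 or RC replicate 2 (adjusted p = 0.0749, 0.108 and 0.118).

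PMAIP1, which encodes NOXA (chromosome 18, 59899996-59904305, plus strand), had the largest change of all members. It was at 36.0, 26.4 and 55.7 CPM in CC and at 0.856, 0.511 and 0.597 CPM in TC, and at 0.890, 0.435 and 0.370 CPM in PC. Those TC and PC values rest on 33, 20 and 32 reads and on 34, 20 and 16 reads, all above the floor of 3 counts. RC was at 16.4, 22.5 and 27.3 CPM and overlapped CC. PMAIP1 fell 60.3-fold in TC (log2 -5.91, SE 0.38, adjusted p = 4.31e-08) and 70.7-fold in PC (log2 -6.14, SE 0.39, adjusted p = 3.61e-08), and from PC to RC it rose 39.6-fold (log2 5.31, SE 0.38, adjusted p = 9.87e-08). The 2 drug-free days to PC left it without a detectable change (-0.23, SE 0.44, adjusted p = 0.753). In RC its log2 difference from CC was -0.84 (SE 0.28, adjusted p = 0.0368). That call rested on CC replicate 3, without which the difference was -0.50 (adjusted p = 0.164), and it was also lost without CC replicate 1, RC replicate 1 or RC replicate 2, with only the 2 groups compared (-0.83, adjusted p = 0.0621) and under DESeq2 (adjusted p = 0.0682), which makes 6 of 19 alternatives. The falls in TC and PC without CC replicate 3 were -5.58 and -5.80.

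BIK, a BH3-only protein of the endoplasmic reticulum (chromosome 22, 43110750-43129712, plus strand), was close to the floor, with 17, 15 and 25 reads in the CC libraries, 9, 5 and 12 in those of TC, 5, 2 and 2 in those of PC, and 8, 8 and 6 in those of RC. The lowest CC library was above all others, and PC held the fewest reads. Its mean scaled count of 9.55 lay just under the minimum of 10, so that it was not tested with the others. With the filter eased to a summed count of 2, BIK differed from CC by -2.53 in PC (SE 0.54, adjusted p = 0.000926) and by -1.499 in RC (SE 0.48, adjusted p = 0.0379), both called, and by -1.10 in TC (SE 0.47, adjusted p = 0.0752). Of the 3 PC libraries 2 lay under the floor of 3 counts, so that the size of the PC difference is poorly set.

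**Figure D2:**
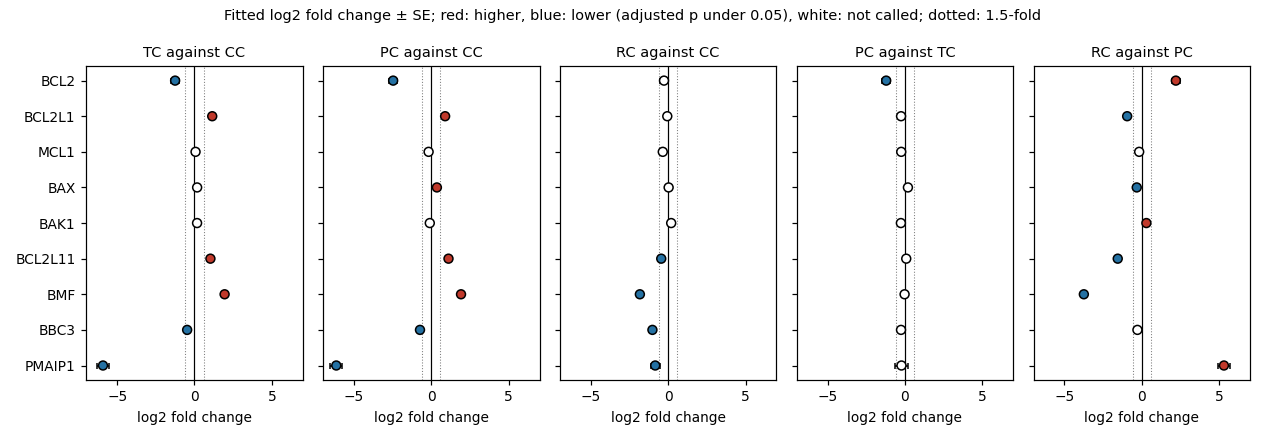
Log2 fold change with its SE (x axes) of the 9 tested members (rows) in 5 comparisons (panels), with filled points for called genes and dotted lines at 1.5-fold. BMF and BCL2L11 lay above 1 in TC and PC and below 0 in RC, and PMAIP1 lay near -6 in TC and PC.

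Divided by exon length, levels can be compared between genes, here as CPM per kb of exon. In CC the order ran from MCL1 (42.7 ± 17.6) and BAX (32.0 ± 4.44), whose libraries overlapped, through PMAIP1 (18.0 ± 6.82) and BAK1 (16.1), which also overlapped, then BBC3 (11.4) and BMF (11.2), again overlapping, to BCL2L1 (3.29), BCL2L11 (2.84), BCL2 (1.88) and BIK (0.451). In TC, BMF (43.2 ± 7.21) stood next to MCL1 (44.8), and PMAIP1 had dropped to 0.299, between BCL2 (0.792) and BIK (0.205). In PC, BMF (42.4), BAX (41.0) and MCL1 (37.8) led. In RC, BMF was at 3.16, level with BCL2L1 (3.17), and PMAIP1 was back at 10.1.

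Without CC replicate 3 the CC means of MCL1 and PMAIP1 were 32.6 and 14.3, and BAX, at 33.8, came before MCL1.

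Summed over the 5 BH3-only members, the RNA per kb was 43.96 ± 5.600 in CC and 57.7 ± 6.22 in TC, and then 55.8 ± 2.09 for PC and 21.1 ± 3.75 for RC (SD, n = 3). In TC and PC the mean sum stayed above that of CC while its make-up changed, and in RC it was the lowest. BMF made up 26.0% of it for CC, 74.5% for TC, 76.1% for PC and 15.0% for RC. For PMAIP1 the shares were 40.2%, 0.529%, 0.458% and 47.4%. In the prosurvival sum, which was 47.9 ± 17.9 for CC, 52.9 ± 0.501 for TC, 44.3 ± 0.459 for PC and 38.3 ± 0.319 for RC, MCL1 held between 84.7% and 88.4% in every group. Without CC replicate 3 the CC means of the BH3-only and prosurvival sums were 41.2 and 37.6, the latter then below RC. BCL2L1 went from 7.54% of it in CC to 13.8% in TC and in PC, and BCL2 from 4.05% to 1.498% in TC and 0.771% in PC. The effector sum stayed between 48.1 in CC and 56.03 in PC. These sums are descriptions without a test, they say nothing of protein, and exon lengths were taken over all annotated transcripts of a gene.

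**Figure D3:**
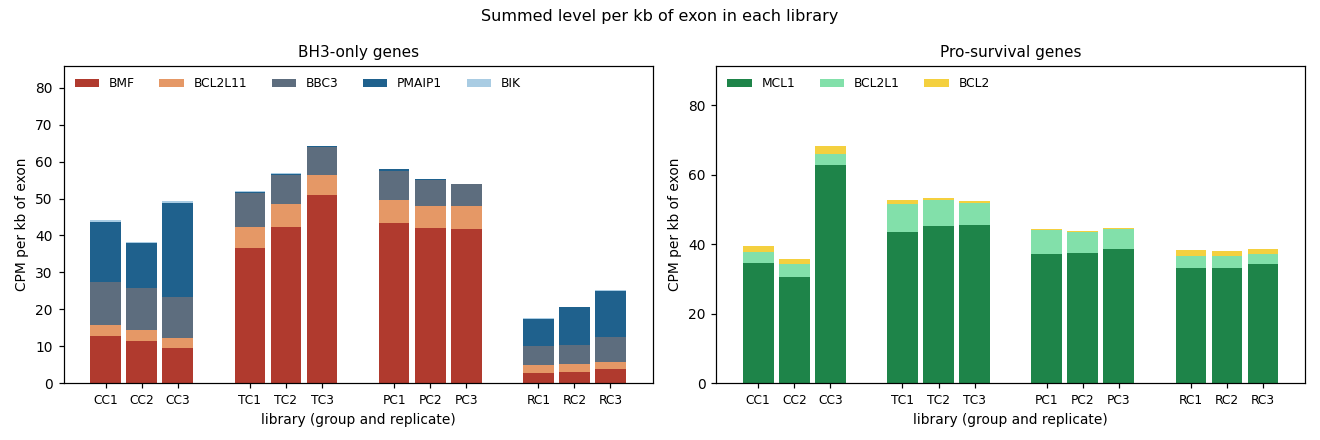
CPM per kb of exon (y axes, linear from 0) of the BH3-only members (left) and the prosurvival members (right), stacked in each of the 12 libraries (x axes). BMF took on average 74.5% of the BH3-only stack in TC and PMAIP1 0.529%, against 26.0% and 40.2% in CC, and CC replicate 3 stood out by its MCL1.

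After drug removal fewer members were called over the first 2 days than over the following week, and the same held for all genes tested. Between TC and PC, 1 of 9 tested members was called lower and none higher, beside 12.5% and 12.2% of all genes, and none was beyond 1.5-fold, beside 1.15% and 2.33%. Without CC replicate 3, MCL1 and BAK1 joined BCL2 among the lower members and BAX was called higher, and BAK1 was also called lower without CC replicate 1 or CC replicate 2. Between PC and RC, 3 members were called higher (BCL2, BAK1 and PMAIP1) and 4 lower (BCL2L1, BAX, BCL2L11 and BMF), beside 35.7% and 34.2% of all genes, and 2 higher and 3 lower beyond 1.5-fold, beside 20.2% and 18.5%. Of these 7, BCL2, BCL2L1, BAX and BAK1 were not called against CC in RC, PMAIP1 was below CC by a call that 6 of 19 alternatives lost, and BCL2L11 and BMF had gone from above CC to below it.

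The genes whose log2 CPM ran most like each member over the 12 libraries were found among 11914 genes with a mean count of at least 100. For BCL2L11 they were COPZ2 and MXD4 (Pearson r = 0.996 each), for BMF ENDOV and RASGEF1C (0.995 each) and for PMAIP1 USP53 and FGF2 (0.995 each). For BCL2L1 they were LYPLA2 (0.990) and FAM161B (0.989), and for BCL2 P2RX7 (0.989) and PLEKHG3 (0.987). The 12 libraries fall into 4 groups, so that any gene with the same group pattern scores high: 16.1% of genes reached 0.9 with PMAIP1, 15.2% with BCL2L11, 12.6% with BCL2L1, 9.64% with BMF and 5.93% with BCL2. MCL1 was most like DDX3X (0.958) and ADNP (0.939), and 0.118% of genes reached 0.9 with it. For BAX the nearest genes were MOCS2 (0.958) and DSTNP2 (0.953), for BBC3 CC2D2A (0.967) and PWAR6 (0.956), and for BAK1 ALDH16A1 (0.896) and CD63 (0.890). BCL2L11 and BMF had an r of 0.974 with each other.

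Of 13 further genes of the family, 10 were tested. In TC 6 were higher and 2 lower, beside 33.2% and 34.7% of all genes. In PC 5 were higher and 2 lower, beside 33.2% and 35.9%, and in RC 1 was higher and 2 lower, beside 18.2% and 19.1%. Their median log2 fold changes were 0.30, 0.21 and 0.03, where those of all genes tested were -0.02, -0.04 and 0.00. BCL2A1, a prosurvival member that MITF drives in melanocytes, was at 11.0 ± 2.93 CPM in CC and 22.6 ± 6.19 in TC, a rise of 1.04 (SE 0.24), and it rose by 1.05 in PC (SE 0.24). BNIP3L and BNIP3, receptors for the removal of mitochondria, rose in TC by 1.30 (SE 0.07) and 1.02 (SE 0.13). BAD, a BH3-only protein held inactive by phosphorylation, rose by 0.78 (SE 0.12), and BCL2L2, a prosurvival gene, by 0.29 (SE 0.07). In RC, BCL2L2 differed from CC by -0.45 (SE 0.07) and was called lower. HRK, a BH3-only gene, was at 7.88, 4.45 and 16.5 CPM in CC and 3.73, 2.71 and 1.72 CPM in TC. HRK was called lower at all 3 times (-1.82, SE 0.48; -1.35, SE 0.47; -1.45, SE 0.47), but without CC replicate 3 the differences were -1.18 (adjusted p = 0.0269), -0.70 (adjusted p = 0.158) and -0.81 (adjusted p = 0.145). BID, which caspases cut to activate it, and BOK, an effector, passed no test against CC, and BCL2L10, BCL2L14 and BCL2L15 had at most 10 reads in any library.

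**Figure D4:**
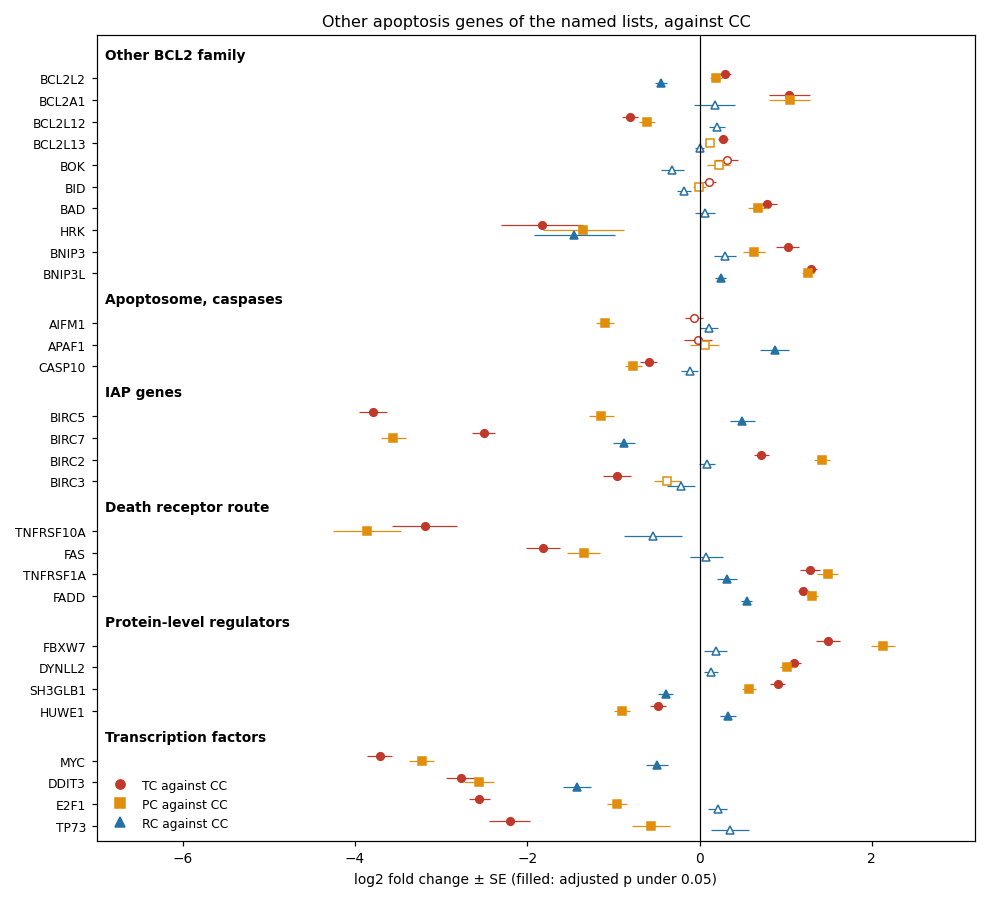
Log2 fold change with its SE (x axis) in TC, PC and RC against CC (circles, squares and triangles, filled where called) of genes of the wider family and pathway (rows). BIRC5 and MYC lay below -3 in TC, and FBXW7 and FADD above 1 in TC.

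Downstream of the mitochondria, of the 12 genes of the apoptosome and caspases, 3 were higher and 2 lower in TC, beside 33.2% and 34.7% of all genes, 5 higher and 3 lower in PC, beside 33.2% and 35.9%, and 3 higher and none lower in RC, beside 18.2% and 19.1%. With all libraries none was beyond 1.5-fold in TC or RC, and in PC AIFM1 and CASP10, an initiator caspase (-0.77, SE 0.10), were lower beyond it. AIFM1, a mitochondrial flavoprotein, differed by -0.07 in TC (SE 0.10) and fell by 1.10 in PC (SE 0.11), and APAF1, the scaffold of the apoptosome, was level with CC in TC (-0.02, SE 0.16) and rose by 0.87 in RC (SE 0.16). Without CC replicate 3, the APAF1 rise in RC was 1.09 (SE 0.14) and was called beyond 1.5-fold (adjusted p = 0.0150). Of 6 inhibitor of apoptosis genes, 1 was higher and 3 were lower in TC and in PC, and 1 each way in RC, beside the same shares of all genes. BIRC5, which encodes survivin and is transcribed in dividing cells, fell by 3.79 in TC (SE 0.16) and by 1.14 in PC (SE 0.14). BIRC7, which encodes the melanoma inhibitor of apoptosis ML-IAP, fell at all 3 times (-2.51, -3.56 and -0.88, SE 0.14, 0.14 and 0.13), and BIRC2 rose by 0.72 in TC (SE 0.09) and 1.42 in PC (SE 0.09).

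In the death receptor pathway 8 of 10 genes were tested, and 5 were higher and 3 lower in TC and in PC, and 3 higher and 2 lower in RC, beside the same shares of all genes. The receptors TNFRSF10A and FAS fell in TC (-3.19, SE 0.38, and -1.82, SE 0.20), while TNFRSF1A, a receptor for TNF, and the adaptor FADD rose by 1.28 (SE 0.12) and 1.20 (SE 0.06). Of 8 genes that act on BCL2 family proteins, 7 were tested, and 4 were higher and 2 lower in TC, 4 higher and 3 lower in PC, and 1 each way in RC, beside the same shares of all genes. FBXW7 and HUWE1 both encode parts of ubiquitin ligases that mark MCL1 for destruction, and they moved apart: FBXW7 rose by 1.49 in TC (SE 0.14) and 2.13 in PC (SE 0.14), and HUWE1 fell (-0.48 and -0.90, SE 0.10 each). DYNLL2, the dynein light chain that holds BMF, rose by 1.10 in TC (SE 0.08).

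Of 10 transcription factor genes linked to the family, 2 were higher and 6 lower in TC, beside 33.2% and 34.7% of all genes. In PC 2 were higher and 7 lower, beside 33.2% and 35.9%, and in RC none was higher and 4 were lower, beside 18.2% and 19.1%. Their medians were -1.12, -0.82 and -0.07, where those of all genes tested were -0.02, -0.04 and 0.00. DDIT3, which encodes the stress factor CHOP, fell at all 3 times (-2.77, -2.56 and -1.42, SE 0.17, 0.17 and 0.16), and so did MYC (-3.71, -3.23 and -0.50, SE 0.15, 0.14 and 0.13). ATF4 and FOXO3 were singled out after their values were seen. ATF4, a stress factor upstream of PMAIP1, also fell at all 3 times (-1.75, -1.57 and -0.93, SE 0.13 each). FOXO3, known to drive BCL2L11 and BBC3, rose by 0.52 in TC (SE 0.07) and 0.41 in PC (SE 0.07), while BBC3 fell in both. Of MDM2, a ubiquitin ligase, and CDKN1A, an inhibitor of the cell cycle, neither was called in TC or PC (MDM2 -0.13 and -0.02, SE 0.11 each; CDKN1A -0.09 and -0.11, SE 0.07 each), where PMAIP1 and BBC3 were lower, and CDKN1A fell by 0.93 in RC (SE 0.07). Whether any of these factors acted on the members was not tested.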

How the data were processed

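RNA of 12 A375 libraries, 3 each of CC, TC, PC and RC, was measured after rRNA depletion. The labels name cytoplasmic RNA and the study's methods total RNA. The deposited table holds raw read counts per gene, which the authors made with fastp 0.20.1, HISAT2 2.2.1 (GRCh38.p13) and HTSeq 0.13.5 on exons of the NCBI annotation. Strand setting and reads with several matches were not given in the sources used here, and the table names genes by symbol. Library totals are in the report. No pair of libraries of a group agreed within sampling noise.

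The counts were fitted in edgeR 4.0.16 under R 4.3.3 with TMM factors (0.965 to 1.02), a mean per group and no covariate, over all 12 libraries (8 residual degrees of freedom; the common coefficient of biological variation was 0.182). Genes with a mean scaled count of at least 10 were tested, by the two-sided quasi-likelihood test and, for changes beyond 1.5-fold, by glmTreat, with Benjamini-Hochberg adjustment over all 15916 genes. The procedure was tested on simulated data. Exon lengths and positions came from GENCODE v44, and promoter sequences from RefSeq (GRCh38.p14). Figures were drawn with matplotlib 3.10.9.

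The members and lists were chosen with earlier results of these data known. Named genes were the members, all other family genes listed, the 4 tested genes with the largest change against CC in each further list, MDM2 and CDKN1A, ERK output genes, cell type markers, and the 2 genes most alike each member. Alternatives were other size factors, DESeq2 1.42.0, other filters, the replicate number as a block, only the 2 groups compared, and leaving out each library. Some results of named genes are not reported here.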

Additional observations from a re-analysis of the deposited data

How the results depend on the processing

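Of 855 values of the 45 member fold changes under 19 alternatives, 818 kept their direction and their side of the threshold, 8 lost and 21 gained a call, and 8 changed sign. The sign changes came from leaving out single libraries, over which MCL1 ranged from -0.13 to 0.46 in TC, from -0.37 to 0.22 in PC and from -0.54 to 0.046 in RC, BCL2L1 in RC from -0.096 to 0.0060, BAX in RC from -0.045 to 0.15, and BMF between TC and PC from -0.13 to 0.11. Of the 8 values with a changed sign, all but that of MCL1 in PC missed the threshold. The call of PMAIP1 in RC had an adjusted p between 0.0115 and 0.164 over the alternatives. Of 103 calls of named genes outside the members, 91 were kept in every alternative.

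Among member counts, that of lower members beyond 1.5-fold in RC was 1 under DESeq2, and between TC and PC the number of lower members was 2 under DESeq2, 2 with a mean count of at least 50, 2 with the replicate block and 3 with only the 2 groups compared, which also called 1 member higher. Leaving out single libraries gave 2 to 4 members lower beyond 1.5-fold in PC (4 without PC replicate 1), 1 to 2 in RC, 0 to 1 higher and 1 to 3 lower between TC and PC, and 0 to 1 lower there beyond 1.5-fold. The count filter was applied again after each library was left out. The 4 without PC replicate 1 included BIK, which was not among the members tested with all libraries. In the other lists, with only the 2 groups compared, 1 apoptosome gene was lower in TC, 1 further family gene lower in PC, 3 apoptosome genes higher in PC, 1 death receptor gene lower in RC and 0 protein-level regulators higher in RC, and the replicate block called 2 further family genes higher in RC. Leaving out single libraries gave, in TC, 3 to 5 apoptosome genes higher and 1 to 2 lower, 1 to 2 inhibitor of apoptosis genes higher and 0 to 1 of MDM2 and CDKN1A lower. In PC it gave 1 to 2 further family genes lower, 3 to 5 apoptosome genes higher and 2 to 5 lower, 1 to 2 inhibitor of apoptosis genes higher and 0 to 1 of MDM2 and CDKN1A lower. In RC it gave 1 to 3 further family genes higher and 1 to 2 lower, 0 to 1 apoptosome genes lower, 0 to 1 inhibitor of apoptosis genes higher and 1 to 3 lower, 1 to 2 death receptor genes lower, 1 to 3 protein-level regulators higher and 1 to 2 lower, and 0 to 2 transcription factors higher and 0 to 1 of MDM2 and CDKN1A higher. The cause of these shifts was not tested.

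Replicate numbers were not taken to pair the samples, since the labels tie no number to a shared culture and deviations of libraries with the same number had correlations between -0.037 and 0.155 (18 pairs; -0.121 to 0.042 for other numbers). Among CC, TC and PC, though, each library correlated best with its own number in the other groups (TC with PC 0.068 to 0.155, against -0.121 to 0.0034 for other numbers). The column names of the deposited counts also end in the same 3 numbers in every group, in step with the replicate numbers. What these endings stand for was not stated, so that a pairing of the samples was neither given nor excluded. The best match with the own number did not hold with RC. With the number as a replicate block, 10858 genes were called in TC against 10807 without it, 4038 against 3936 between TC and PC, and among the members BCL2L1 between TC and PC gained a call (-0.25, adjusted p = 0.0456). With 3 libraries per group, the smallest member difference called was 0.29 (BAK1, PC to RC) and the largest not called -0.35 (MCL1, RC), and BIK at 2 to 25 reads is limited by depth.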
